A study of Homo sapiens with 6 samples.

Results

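The genes described here encode the extracellular matrix of Huh7 cells, the enzymes that build, crosslink and cut it, and a small group of mesenchymal markers and regulators. Huh7 is an established human hepatocellular carcinoma line of epithelial type. The 48 genes were given as a list of symbols, drawn up with earlier results of these data known. All 48 were found once among the 58735 genes of the deposited count table. The cells were labelled as carrying a short hairpin RNA against ITGB5, the integrin beta 5 subunit (shITGB5, 3 libraries), or a control hairpin (shcontrol, 3 libraries). Both groups were grown in the same serum-containing medium, and the labels name no drug, no time after transduction and no clone. The labels do not say whether libraries with the same hairpin were cultured apart. The p-values therefore rest on library-to-library spread that could be technical. The comparison asks which transcripts differ between cells with the ITGB5 hairpin and cells with the control hairpin.

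The matrix is a secreted network that surrounds cells. Fibronectin, collagens and laminins form its scaffold, matricellular proteins such as thrombospondin and tenascin modulate how cells attach to it, and enzymes hydroxylate, crosslink or cleave it. Integrins are the main receptors for this network, and the alpha V beta 5 integrin is known as a receptor for vitronectin and for other matrix ligands. In epithelial-mesenchymal transition (EMT), transcription factors of the SNAI, ZEB and TWIST families repress epithelial cadherin, and cells gain vimentin and N-cadherin.

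ITGB5 itself was measured first as a check of the labels. Its level in CPM (counts relative to the TMM-scaled library total) was 205, 214 and 217 in the shcontrol libraries and 173, 181 and 174 in the shITGB5 libraries. The groups did not overlap, and the means were 211.8 CPM ± 6.35 and 176 CPM ± 4.30 (SD, n = 3 each), a log2 change of -0.27 (edgeR quasi-likelihood test, Benjamini-Hochberg adjusted p = 2.13e-09; exact two-sided permutation test p = 0.1, the smallest that 3 libraries against 3 allow). The ITGB5 change was -16.8%, so most of the transcript remained in the shITGB5 libraries. Its log2 size was not far above the median absolute log2 change of all called genes, 0.22. A drop of this size hardly sets the target apart from other called genes, so the check of the labels is a weak one. Libraries held 15777922 to 18011313 counts. Markers of other cell types were measured too. The 9 fibroblast and stellate cell markers summed to 26.4 to 28.4 CPM in shcontrol and 27.3 to 31.1 CPM in shITGB5, and the 5 endothelial markers to 3.55 to 5.63 and 4.18 to 5.51 CPM. The 7 blood and immune markers summed to 37.7 to 38.01 CPM and 40.4 to 43.1 CPM. Of all these markers, PDGFRA, CD14 and LYZ reached 1 FPKM. CD14 made up most of the blood and immune sum, at 16.3 FPKM ± 0.380 in shcontrol and 18.4 FPKM ± 0.589 in shITGB5 (SD, n = 3 each; edgeR adjusted p = 0.071). KDR had a count of 0 in every library, and THY1, VWF, CDH5 and TEK in every shcontrol library. In each shITGB5 library VWF had 2 or 3 counts and TEK had 1. None of the 7 markers of other cell types that could be tested passed. The 8 hepatocyte lineage markers summed to 5962 to 6123 CPM in shcontrol and 6805 to 6992 CPM in shITGB5. Of these 8, 6 rose (75%), against 8.31% of all genes tested. Among genes with at least 10 FPKM, 30.7% were called in either direction. TTR, which rose, lay below that level. The part of these marker levels in the results was not tested. In RNA from bulk cells, a change in the share of cells that make a transcript and a change in the amount per cell cannot be told apart.

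Of the 48 genes, 42 were expressed, taken as a mean of at least 1 FPKM in a group (CPM divided by the listed gene length in kilobases). The 6 others were COL5A1, LAMA1 and MMP2, with a count of 0 in all 6 libraries, TWIST1, with 2 counts in 1 library of each group, and COL2A1 and SPARC, at 0.139 and 0.757 FPKM in shcontrol. At these depths a count of 0 allows up to 0.167 to 0.190 CPM in a library, for counting error only. Per length, the highest were COL5A2 at 192 FPKM ± 1.04 (SD, n = 3), FN1 at 181 FPKM ± 3.29 and MMP14 at 135 FPKM ± 1.98 in shcontrol, and their order was the same in shITGB5. This order depends on the listed lengths, which cover all exons (17315 bases for FN1 and 7453 for COL5A2). By CPM, FN1 was above COL5A2, at 3128 against 1430 in shcontrol. All the genes together took 1.25% to 1.28% of the counts in shcontrol and 1.26% to 1.30% in shITGB5, ranges that overlap. FN1 alone made up 24.5% to 24.98% of that sum in shcontrol and 22.9% to 23.1% in shITGB5.

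**Figure D1:**
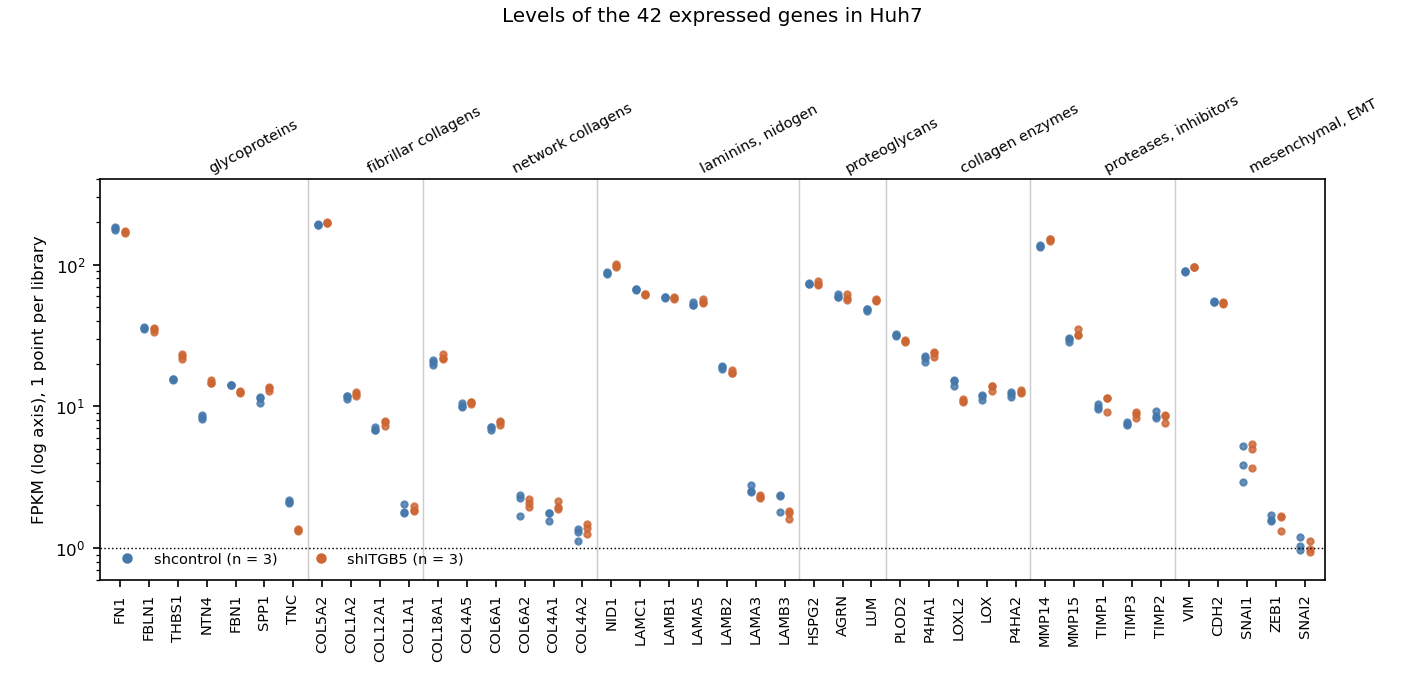
FPKM on a log axis for the 42 expressed genes, grouped by role, with 1 point per library (blue, shcontrol; orange, shITGB5; 3 libraries each) and a dotted line at 1 FPKM. COL5A2, FN1 and MMP14 lie above 100 FPKM in every library, and for most genes the 2 colours lie close together.

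Matrix and mesenchymal genes moved in both directions, mostly by small amounts. Of the 44 genes that passed the low-count filter, 13 rose and 7 fell (29.5% and 15.9%), and 24 did not pass (edgeR, adjusted over all 16577 genes tested, threshold 0.05). Over all genes tested, 15.1% were called, 8.31% as higher and 6.74% as lower. Abundant genes were called more often in general: among genes with a mean of at least 10 FPKM in a group the share was 30.7%, against 16 of 28 matrix genes at that level (57.1%). The genes were listed with earlier results of these data known, so no test was made of the list. Its median log2 change was 0.05, against 0.00 over all genes tested, with 27 genes positive and 17 negative. Of the 20 called genes, 4 changed by at least 1.2-fold (NTN4, THBS1, TNC and LOXL2) and 16 by less. The 2 groups of libraries did not overlap for 24 of the 44 genes, against 28.5% of all genes tested, and these 24 included all 20 called ones.

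**Figure D2:**
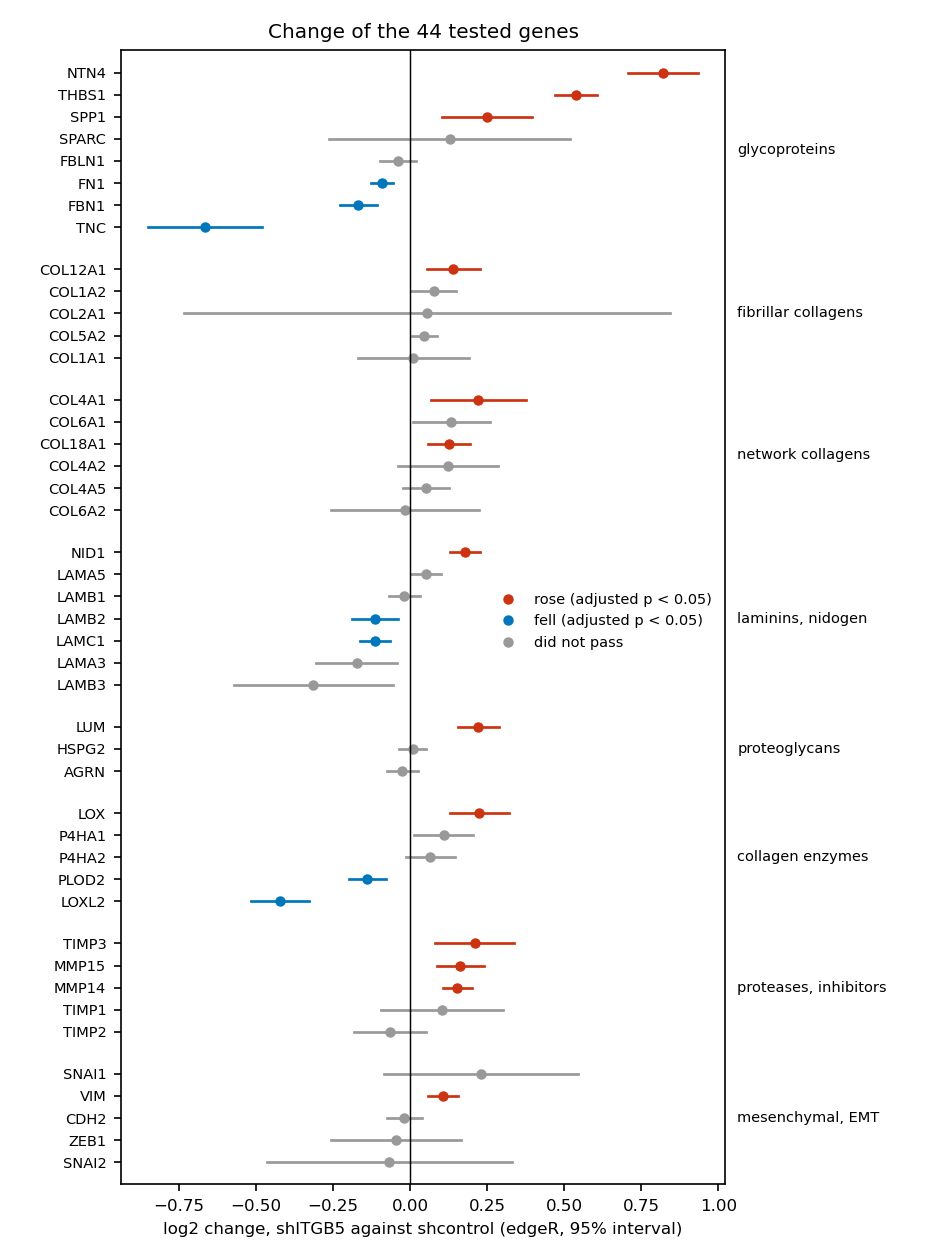
Log2 change of the 44 tested genes (shITGB5 against shcontrol) with 95% intervals from the edgeR fit, grouped by role (red, rose; blue, fell; grey, did not pass). NTN4 at 0.82 and TNC at -0.66 are the extremes among the called genes, and most of the others lie within 0.25 of 0.

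Among the glycoproteins, NTN4, THBS1 and SPP1 rose and TNC, FBN1 and FN1 fell. NTN4, a laminin-related netrin that can bind laminin chains in basement membranes, lay at 34.9, 36.4 and 33.9 CPM in shcontrol and at 61.0, 61.1 and 63.6 CPM in shITGB5. All hairpin libraries were above all controls, by 76.6% (95% interval 63.2% to 91.1%; log2 change 0.82, SE 0.057, edgeR adjusted p = 4.07e-18). NTN4 (ENSG00000074527) lies on chromosome 12, 95657807 to 95791152, minus strand, GRCh38. THBS1, thrombospondin 1, a secreted matricellular protein that can activate latent TGF-beta, lay at 140.4, 143 and 143 CPM in shcontrol and at 207, 216 and 197 CPM in shITGB5. It was 45.1% higher (38.4% to 52.1%; log2 change 0.54, SE 0.034, edgeR adjusted p = 1.04e-19), with no overlap of the groups. THBS1 (ENSG00000137801) lies on chromosome 15, 39581079 to 39599466, plus strand. SPP1, osteopontin, an integrin ligand, lay at 24.5, 26.5 and 27.2 CPM against 29.6, 31.2 and 32.04 CPM, a rise of 18.9% (edgeR adjusted p = 0.0123). The SPP1 call was lost when shcontrol replicate 1 was left out (edgeR adjusted p = 0.0982) or shITGB5 replicate 3 (0.0781).

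TNC, tenascin C, a matricellular glycoprotein of wounds and tumour stroma, had the largest drop among the 48 genes. It lay at 20.1, 21.2 and 20.3 CPM in shcontrol and at 12.6, 13.3 and 13.01 CPM in shITGB5, so that every hairpin library was below every control. The drop came to -36.9% (95% interval -44.5% to -28.2%; log2 change -0.66, SE 0.092, edgeR adjusted p = 9.32e-08). TNC (ENSG00000041982) lies on chromosome 9, 115019578 to 115118257, minus strand. FBN1, fibrillin 1, the backbone of microfibrils, was at 227, 227 and 228 CPM in shcontrol and at 199, 206 and 202 CPM in shITGB5 (log2 change -0.17, edgeR adjusted p = 2.22e-05). FN1, fibronectin, the most abundant of these genes by count, was at 3064, 3174 and 3147 CPM in shcontrol and at 2935, 2973 and 2900.25 CPM in shITGB5. Its groups did not overlap, but the difference was small (log2 change -0.09, SE 0.018, edgeR adjusted p = 0.000131). FBLN1, fibulin 1, lay at 256, 263 and 262 CPM in shcontrol and at 256, 259.6 and 245 CPM in shITGB5, with overlapping groups and an edgeR adjusted p of 0.466. SPARC, a collagen-binding matricellular protein, was at 3.66 CPM ± 0.562 and 3.99 CPM ± 0.804 (SD, n = 3 each; adjusted p = 0.751).

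**Figure D3:**
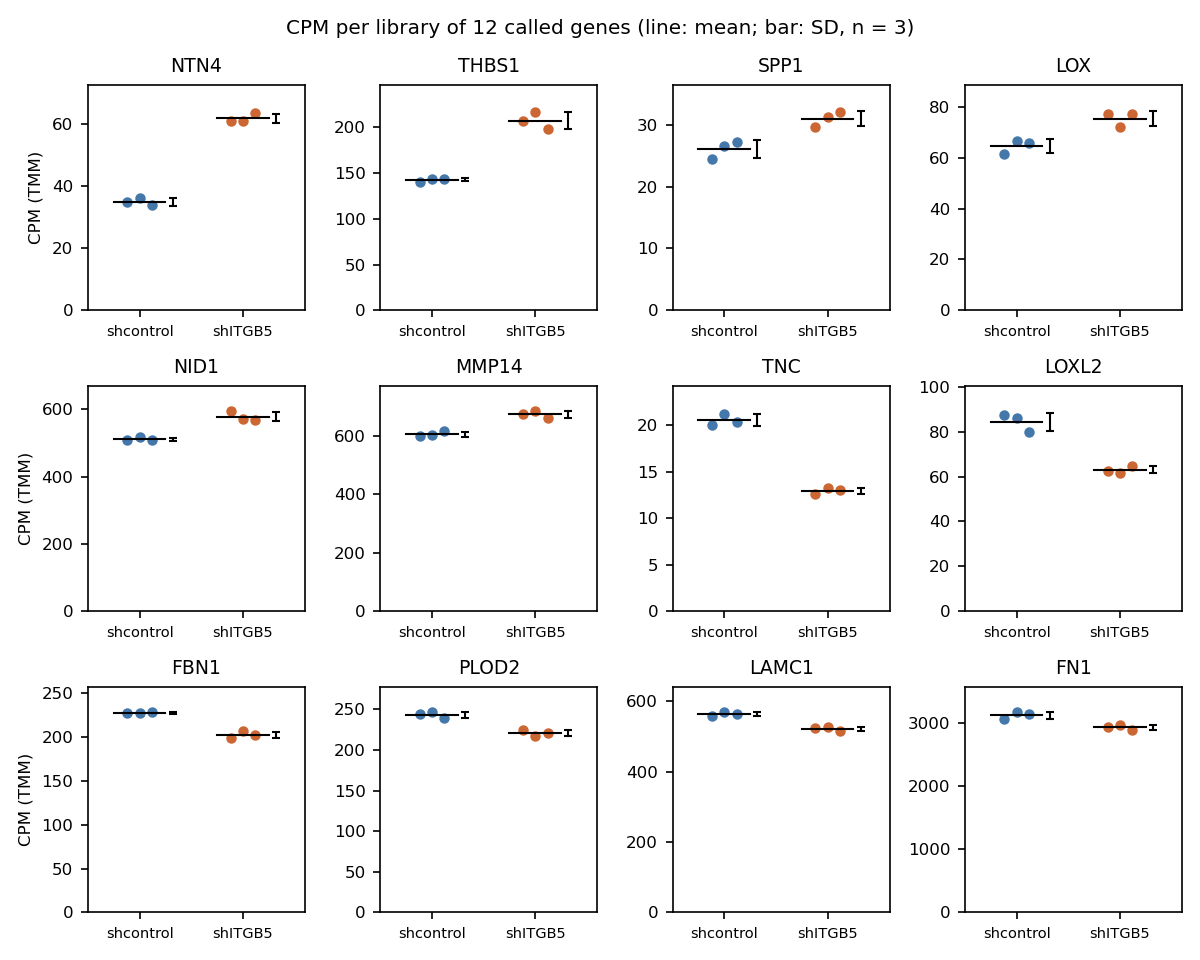
CPM in each library for 12 called genes, on axes that start at 0 (points, libraries; line, mean; bar beside it, SD, n = 3). The 6 genes from NTN4 to MMP14 are higher in every shITGB5 library and the 6 from TNC to FN1 lower in every one; the separation is wide for NTN4, THBS1 and TNC and narrow for FN1 and LAMC1.

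Of the 11 collagen genes tested among the 48, 3 rose slightly (COL12A1, COL18A1 and COL4A1), 8 did not pass and none fell. The share called over all genes tested was 15.1%, and 30.7% among abundant genes, and each of these 3 calls was lost under several alternatives. Of these 3 genes, COL18A1 alone reached 10 FPKM. COL14A1, an abundant collagen gene outside the 48 that is named with its value known, fell (log2 change -0.08). The fibril-associated collagen gene COL12A1 was at 85.4, 85.5 and 89.3 CPM in shcontrol and 98.4, 90.8 and 97.4 CPM in shITGB5 (log2 change 0.14, edgeR adjusted p = 0.0158). COL18A1, the basement membrane collagen from which endostatin is cleaved, was at 175, 168 and 182 CPM and at 185, 201 and 188 CPM (log2 change 0.13, adjusted p = 0.00536), and SLC19A1 on the opposite strand, which rose (0.23), overlaps it with counts equal to 18.1% of its own. COL12A1 was not called when shcontrol replicate 1 (edgeR adjusted p = 0.0803), shcontrol replicate 2 (0.0751), shITGB5 replicate 1 (0.108) or shITGB5 replicate 3 (0.0825) was left out. COL18A1 was not called when shcontrol replicate 2 (0.0865) or shITGB5 replicate 2 (0.0844) was left out. Both also missed it with limma on log2(FPKM + 1) (limma adjusted p = 0.155 and 0.139).

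The fibrillar chains were present in unequal amounts and did not pass. COL5A2 encodes the alpha 2 chain of collagen V, a minor fibrillar collagen whose usual trimer also contains the chain of COL5A1, the gene at a count of 0 here. It lay at 1429.9, 1438 and 1422 CPM in shcontrol and at 1469.6, 1499 and 1462 CPM in shITGB5, a difference of 3.27% (95% interval 0.451% to 6.16%) with groups that did not overlap and an edgeR adjusted p of 0.116. COL11A1, which encodes a related fibrillar chain and was listed among the other collagens, lay at 6.74 FPKM ± 0.462 and 7.02 FPKM ± 0.196. Collagen I is usually built from a pair of COL1A1 chains and a single COL1A2 chain. In these cells COL1A2 lay at 11.7 FPKM ± 0.335 and COL1A1 at 1.87 FPKM ± 0.167 in shcontrol, so the COL1A2 transcript was the more abundant per length. COL1A2 was at 132, 126 and 132 CPM against 138, 141 and 133 CPM, higher in every hairpin library by a narrow margin. Neither chain passed (adjusted p = 0.165 for COL1A2 and 0.961 for COL1A1), and COL2A1, the cartilage collagen, had 13 to 23 counts per library (adjusted p = 0.956).

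COL4A1 and COL4A2 encode the chains of the common collagen IV network of basement membranes. They lie head to head on chromosome 13 and are known to share a promoter region. COL4A1 was at 26.2, 26.3 and 22.9 CPM in shcontrol and at 28.7, 31.7 and 27.7 CPM in shITGB5 (log2 change 0.22, SE 0.077, edgeR adjusted p = 0.0401). COL4A2 was at 21.8, 24.9 and 26.1 CPM and at 26.6, 28.6 and 24.2 CPM, with overlapping groups (log2 change 0.12, SE 0.080, adjusted p = 0.36). Whether the pair differ in their change was not tested, and their 95% intervals overlap (4.78% to 29.7% and -2.58% to 21.8%). The COL4A1 call was lost when shcontrol replicate 3 (edgeR adjusted p = 0.245), shITGB5 replicate 1 (0.0574) or shITGB5 replicate 2 (0.245) was left out, with DESeq2 (0.0822) and with limma on log2(FPKM + 1) (0.285). In the table the gene bodies share 1422 bases on opposite strands. The strand setting of the counting is not given in the sources used here, so reads from that stretch could not be told apart without it.

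The stretch between the start sites of this pair is shown because one short segment borders both genes. RefSeq (GRCh38.p14) places the starts 127 bases apart, and the 126 bases between them, at chr13:110307158-110307283, are given 5′ to 3′ on the plus strand, the strand of COL4A2. Capitals mark matches to a CCAAT box (CCAAT) and a GC box (GGGCGG), searched on both strands.
COL4A1-COL4A2: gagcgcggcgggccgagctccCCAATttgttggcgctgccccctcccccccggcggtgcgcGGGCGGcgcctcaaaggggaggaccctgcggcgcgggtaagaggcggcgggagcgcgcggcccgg
A CCAAT match is present in 34.6% and a GC box match in 45.0% of 35116 RefSeq promoter windows of 300 bases. Those windows are longer than the 126 bases shown, so the shares are not for a like length. No TATAAA was found in the windows of either gene, whereas 11.5% of all windows hold it. These matches are letters in a window and show nothing about binding.

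Of the network and beaded-filament collagens among the 48 genes, COL4A5, COL6A1 and COL6A2 did not pass. Of the collagen IV chains in the list of other collagens, COL4A6 rose (log2 change 0.27), and COL4A3 and COL4A4 did not pass. COL4A5, an alternative collagen IV chain, lay at 125, 118 and 119.98 CPM and at 127, 123 and 127 CPM, with overlapping groups and an edgeR adjusted p of 0.412. COL6A1, a chain of beaded-filament collagen VI, was 9.75% higher with groups that did not overlap (38.3, 36.2 and 38.1 CPM against 39.6, 42.2 and 41.8 CPM), but its adjusted p was 0.154. COL6A2, its partner chain, lay at 11.3 CPM ± 1.94 and 11.2 CPM ± 0.677 (adjusted p = 0.957).

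Laminins are trimers of an alpha, a beta and a gamma chain. Per length, LAMA5 was the most abundant alpha chain and LAMB1 the most abundant beta chain among the 48 genes, at 53.1 and 59.0 FPKM in shcontrol, with the gamma chain LAMC1 at 67.2 FPKM and LAMB2 at 19.0 FPKM. LAMC1 was at 558, 570.4 and 565 CPM in shcontrol and 525, 526 and 515 CPM in shITGB5, lower in every hairpin library (log2 change -0.11, SE 0.024, edgeR adjusted p = 0.000288). LAMB2 was at 127, 131 and 132 CPM and at 119, 123 and 119 CPM, with the same log2 change of -0.11 and an adjusted p of 0.0245. The LAMB2 call was lost when shcontrol replicate 2 (edgeR adjusted p = 0.0775), shcontrol replicate 3 (0.101), shITGB5 replicate 1 (0.0847) or shITGB5 replicate 3 (0.097) was left out, with no low-count filter (0.0691) and with limma on log2(FPKM + 1) (0.0908). LAMA5 was at 746, 748 and 782 CPM and at 767, 817 and 775 CPM, and LAMB1 at 475, 479.5 and 485 CPM and at 468, 471 and 483 CPM. Their groups overlapped, and neither passed (adjusted p = 0.15 and 0.721). ADRM1, which rose (0.13), overlaps LAMA5 and DLD, which did not pass, overlaps LAMB1 on the opposite strand, with counts equal to 24.1% and 24.9% of theirs.

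LAMA3 and LAMB3, chains of the laminin of epithelial hemidesmosomes, were low and did not pass. LAMA3 was at 37.2, 41.1 and 36.8 CPM and at 34.0, 34.9 and 33.2 CPM, lower in every hairpin library with an edgeR adjusted p of 0.0648. LAMB3 was at 8.37, 11.1 and 10.9 CPM and at 8.57, 8.29 and 7.50 CPM (adjusted p = 0.0955).

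NID1, nidogen 1, which links laminin to collagen IV, moved the other way from LAMC1. It lay at 509, 517 and 508 CPM in shcontrol and at 595, 572 and 569.6 CPM in shITGB5, and rose by 13.2% (log2 change 0.18, SE 0.024, edgeR adjusted p = 5.04e-08). Its relative NID2, from a list of other basement membrane genes, fell from 231 CPM to 206 CPM (log2 change -0.17). Of the proteoglycans, LUM, lumican, a small keratan sulfate proteoglycan that regulates collagen fibrils, was at 147, 143 and 147 CPM and at 172, 168 and 169.6 CPM. All hairpin libraries were above all controls (log2 change 0.22, SE 0.034, adjusted p = 6.39e-07). The heparan sulfate proteoglycans HSPG2 (perlecan) and AGRN (agrin) did not pass. HSPG2 lay at 1316, 1315 and 1352 CPM against 1313, 1399 and 1294 CPM, a difference of 0.592% with an interval from -2.46% to 3.74%, and AGRN at 636, 635 and 663 CPM against 611, 669 and 621 CPM (-5.14% to 1.90%). For HSPG2, AGRN and LAMA5 the highest of the 6 libraries was shITGB5 replicate 2, whereas the other 2 hairpin libraries lay among or below the controls.

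The lysyl oxidases, which oxidise lysines so that collagen and elastin can be crosslinked, did not all move in 1 direction. LOX rose and LOXL2 fell, whereas LOXL4, LOXL1 and LOXL3, from the list of other collagen synthesis genes, did not pass. LOXL4 was the most abundant of them, at 44.01 FPKM ± 1.32 in shcontrol and 43.6 FPKM ± 1.44 in shITGB5 (SD, n = 3 each; edgeR adjusted p = 0.861). LOX was at 61.4, 66.5 and 65.5 CPM in shcontrol and at 77.1, 71.8 and 77.03 CPM in shITGB5 (log2 change 0.23, SE 0.048, edgeR adjusted p = 0.000376). LOXL2 was at 87.3, 86.1 and 79.8 CPM and at 62.5, 61.7 and 64.6 CPM, which is 25.4% lower (log2 change -0.42, SE 0.047, adjusted p = 1.75e-10). In neither gene did the groups overlap. ENTPD4 overlaps LOXL2 on the same strand with counts equal to 116% of those of LOXL2 and did not pass (log2 change 0.11). SRFBP1 overlaps LOX on the opposite strand with 24.4% of its counts and did not pass either.

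Hydroxylases act on collagen chains in the endoplasmic reticulum. PLOD2, a lysyl hydroxylase of collagen telopeptides, was at 244, 247 and 239.6 CPM in shcontrol and at 225, 218 and 220.3 CPM in shITGB5, and fell (log2 change -0.14, SE 0.030, edgeR adjusted p = 0.000373). The prolyl 4-hydroxylase subunits P4HA1 and P4HA2, which stabilise the collagen helix through hydroxyproline, did not pass. P4HA1 was at 63.8, 70.6 and 68.3 CPM and at 73.9, 69.4 and 74.9 CPM (adjusted p = 0.135), and P4HA2 at 107, 103 and 98.9 CPM and at 106, 108 and 111 CPM (adjusted p = 0.312). In both genes the groups overlapped.

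Of the 5 tested proteases and inhibitors among the 48 genes, MMP14, MMP15 and TIMP3 rose and the others did not pass. The share called was 60%, against 15.1% over all genes tested and 30.7% of those with at least 10 FPKM. TIMP2 and TIMP3 lay below 10 FPKM, so the last share is for an unlike set. Of the other membrane-type metalloproteinases, in the list of other proteases, MMP16 fell (log2 change -0.27), and MMP17 (-0.11) and MMP24 (0.27) did not pass (edgeR adjusted p = 0.504 and 0.169). MMP14, the membrane-type protease that activates pro-MMP2 and cleaves pericellular collagen, was at 597, 602 and 614.5 CPM in shcontrol and at 674, 683 and 659.6 CPM in shITGB5 (log2 change 0.15, SE 0.023, edgeR adjusted p = 8.22e-07). MMP15, a second membrane-type protease, was at 126, 131 and 134 CPM and at 141, 156 and 141 CPM (log2 change 0.16, adjusted p = 0.000957), but missed the threshold with limma on log2(FPKM + 1) (limma adjusted p = 0.0702). MMP2, the secreted gelatinase that MMP14 can activate, had no counts. TIMP3, a metalloproteinase inhibitor held in the matrix, was at 34.2, 35.6 and 34.8 CPM and at 42.1, 40.5 and 38.3 CPM (log2 change 0.21, adjusted p = 0.0164). The TIMP3 call was lost when shcontrol replicate 1 (edgeR adjusted p = 0.0708) or shITGB5 replicate 1 (0.103) was left out. TIMP1 was at 14.7, 15.2 and 16.02 CPM and at 13.98, 17.8 and 17.6 CPM (adjusted p = 0.582), and TIMP2 at 49.0 CPM ± 2.59 and 46.9 CPM ± 3.07 (SD, n = 3 each; adjusted p = 0.558). Groups overlapped in both inhibitors.

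Vimentin was the only gene called among the 5 tested mesenchymal markers and EMT regulators of the 48 genes. That is 20%, against 15.1% over all genes tested and 30.7% of those with at least 10 FPKM. SNAI1, SNAI2 and ZEB1 lay below 10 FPKM, so the last share is for an unlike set. VIM, the intermediate filament of mesenchymal cells, was at 462, 468 and 456 CPM in shcontrol and at 495, 498 and 500.3 CPM in shITGB5, a rise of 7.70% (95% interval 4.09% to 11.4%; edgeR adjusted p = 0.000926). CDH2, N-cadherin, lay at 268, 274 and 272 CPM and at 263, 268 and 272 CPM, and its difference of -1.31% had an interval from -5.13% to 2.65%. In shcontrol, CDH2 stood at 54.8 FPKM ± 0.597 and CDH1, E-cadherin, from the list of epithelial genes, at 23.4 FPKM ± 0.168, so both cadherins were expressed. CDH1 rose to 27.98 FPKM ± 1.1 (log2 change 0.26, adjusted p = 2.67e-08).

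Of the EMT transcription factors among the 48 genes, those tested (SNAI1, SNAI2 and ZEB1) were low and did not pass. In the list of other EMT genes, TCF3 rose and TCF4 fell, as given below. SNAI1 was at 4.93, 6.56 and 8.86 CPM in shcontrol and at 6.18, 8.41 and 9.20 CPM in shITGB5, a spread within each group larger than the difference between their means (edgeR adjusted p = 0.387). SNAI2 lay at 3.61 CPM ± 0.400 and 3.45 CPM ± 0.329, and ZEB1 at 13.9 CPM ± 0.762 and 13.5 CPM ± 1.73 (adjusted p = 0.886 and 0.856). Their intervals were wide (-5.60% to 45.9% for SNAI1, -27.6% to 25.7% for SNAI2 and -16.2% to 12.3% for ZEB1), and each includes 0. The antisense gene ZEB1-AS1 had counts equal to 14.2% of those of ZEB1.

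Other genes of the same pathways also moved in both directions. Their lists were drawn up with earlier results of these data known. Over all genes tested 15.1% were called, and 30.7% of those with a mean of at least 10 FPKM in a group. The lists also hold genes below 10 FPKM. By list, the share called ran from 20% (collagen synthesis and secretion, other EMT genes) to 50% (other proteoglycans). Of 17 tested other collagen chains, 4 rose, COL4A6 (log2 change 0.27), COL27A1 (0.21), COL16A1 (0.20) and COL9A2 (0.16), and 1 fell, COL14A1 (-0.08). The COL9A2 call was lost when shcontrol replicate 2 (edgeR adjusted p = 0.201), shcontrol replicate 3 (0.102) or shITGB5 replicate 3 (0.26) was left out. Among the other laminin, nidogen and netrin genes, NID2 fell (-0.17) and none rose. Of 27 tested other matrix glycoproteins, 6 rose and 4 fell. The matricellular genes CYR61 (0.57), THBS4 (0.48) and CTGF (0.44) rose, and LTBP1 (-0.31), which binds latent TGF-beta, fell. Of 4 tested other proteoglycans, VCAN (0.13) and SPOCK2 (0.15) rose; VCAN was not called when shcontrol replicate 3 was left out (edgeR adjusted p = 0.172). SPOCK2 was called in only 2 of 14 alternatives, with adjusted p up to 0.1997.

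Of 25 tested other genes of collagen synthesis and secretion, 4 rose and 1 fell (20% called, near the 15.1% over all genes tested). FKBP14 (0.34), P3H3 (0.25) and TLL1 (0.22) rose most, and the collagen chaperone SERPINH1 fell (-0.15). Among 15 tested other proteases and inhibitors, 2 rose, MMP11 (0.25) and ADAM15 (0.23), and 2 fell, MMP16 (-0.27) and ADAM9 (-0.10). MMP11 was not called when shcontrol replicate 1 (edgeR adjusted p = 0.138) or shITGB5 replicate 3 (0.11) was left out. MMP16 was not called when shcontrol replicate 2 (0.219), shcontrol replicate 3 (0.17), shITGB5 replicate 1 (0.131) or shITGB5 replicate 3 (0.143) was left out, nor with DESeq2 (0.0962). Among the 19 matrix receptors other than integrins, 2 rose and 4 fell. The syndecans SDC1 (0.46) and SDC3 (-0.41) moved apart, whereas the more abundant SDC4 (0.04) and SDC2 (0.002) did not pass. The hyaluronan receptors CD44 (-1.19) and HMMR (-0.42) fell. CD44 was low, at 1.68 CPM in shcontrol and 0.731 CPM in shITGB5, and its call was lost when shcontrol replicate 2 (edgeR adjusted p = 0.0907) or shITGB5 replicate 1 (0.0843) was left out. Of 10 tested other EMT genes, TCF3 rose (0.35) and TCF4 fell (-0.16). TCF4 was not called when shcontrol replicate 2 (edgeR adjusted p = 0.113), shcontrol replicate 3 (0.15), shITGB5 replicate 2 (0.13) or shITGB5 replicate 3 (0.164) was left out, nor with DESeq2 (0.0807). Of 13 tested epithelial genes, 4 rose, including ESRP1 (0.27) and CDH1 (0.26), and 2 fell, OCLN (-0.20) and DSP (-0.12); ESRP1 was not called when shcontrol replicate 3 was left out (0.0824).

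**Figure D4:**
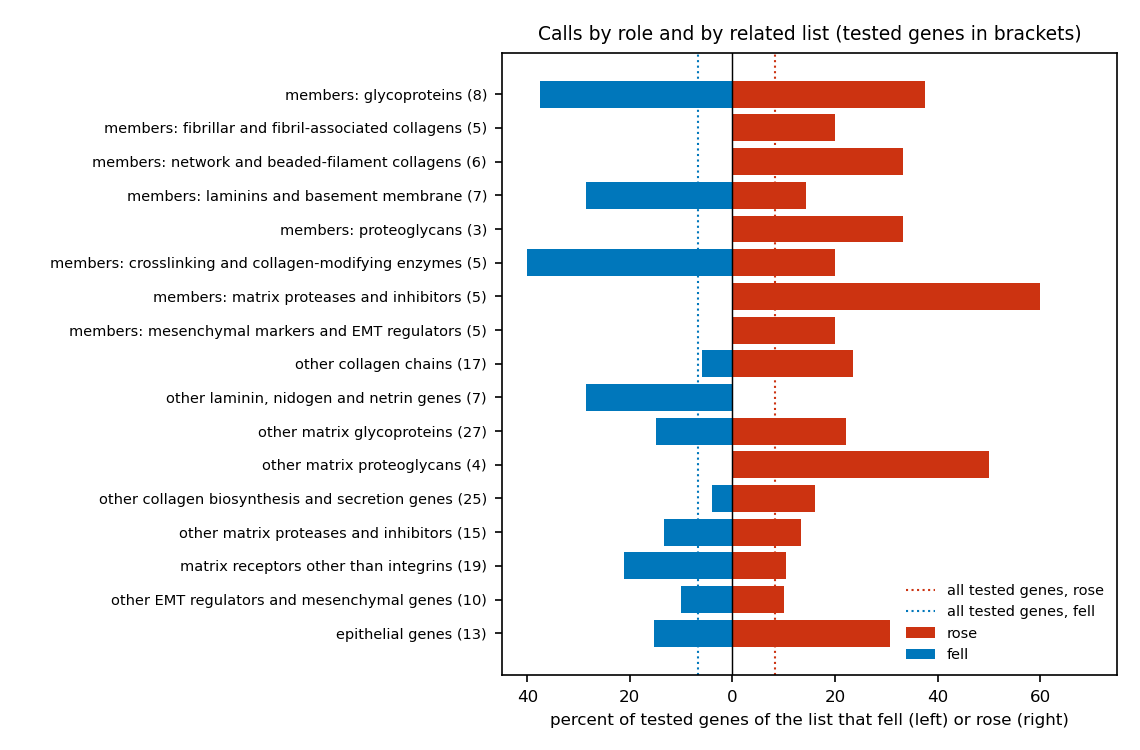
Percent of the tested genes of each role or list that fell (blue, to the left) or rose (red, to the right), with the number tested in brackets and dotted lines at the shares over all 16577 genes (6.74% fell, 8.31% rose). Lists are small, so that 1 gene is a large share of the shortest ones: the 3 calls among 5 proteases and inhibitors are MMP14, MMP15 and TIMP3.

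Words of 7 bases that an earlier pass over these data had found to differ in frequency between lower and higher genes were looked up in the 3′ untranslated region (UTR) of 1 principal GENCODE 29 transcript per gene. AGACCAA or GACCAAA, on the transcript strand, was present in 15.8% of 13245 tested protein-coding genes. Among the matrix genes it was present in 3 of 7 that fell (FN1, LAMC1 and FBN1), 2 of 13 that rose (MMP14 and MMP15) and 1 of 24 that did not pass (COL1A1). TNC, LOXL2, PLOD2 and LAMB2, which fell, do not hold it. Among the genes that fell, the 3′ UTRs ran from 112 bases (LAMB2) to 2802 bases (LAMC1). The counts and shares were not adjusted for UTR length. TCGGAGA or its shifted form CGGAGAA was present in 3.34% of all and in FBN1, TIMP3 and MMP14, and neither NTN4 nor THBS1 holds any of these words. Because the words came from these same libraries, the counts are a description only and their part in the changes was not tested. The sites in the genes with the first pair of words follow, 5′ to 3′ (GRCh38, transcript strand), with the word in capitals.
FN1, chr2:215361201-215361227, minus strand: gaaatgatatGACCAAAattttaagta
LAMC1, chr1:183143544-183143570, plus strand: actcaccaatAGACCAAaagacatctt
FBN1, chr15:48410961-48410987, minus strand: caccatccagAGACCAAataattaaaa
FBN1, chr15:48410291-48410317, minus strand: gtgcttattaAGACCAAagacttgtta
MMP14, chr14:22846955-22846981, plus strand: ggcaggagggGACCAAAaaggaaaatg
MMP15, chr16:58046138-58046164, plus strand: cctcaccacgGACCAAAgggagtctgc
COL1A1, chr17:50185292-50185318, minus strand: aaccgaacatGACCAAAaaccaaaagt
FBN1 carries the word at 2 places, and at both places, as at the site in LAMC1, the words of the first pair overlap, so that each holds AGACCAA and GACCAAA 1 base apart.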

How the data were processed

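Per the labels' protocols, the 6 RNA libraries were made with a directional kit. The authors deposited 1 table whose name says FPKM. Its 6 library columns hold the authors' gene-level counts as deposited (100% whole numbers), made with an aligner, counter and strand setting that no source used here gives. Columns coded S were read as the ITGB5 hairpin and NC as the control, a reading the labels do not spell out. Identifiers, positions and strands of all 58735 genes equalled GENCODE 29 (GRCh38).

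Genes were kept by filterByExpr, scaled by TMM and tested with edgeR 4.0.16 (R 4.3.3, quasi-likelihood, both groups, no covariate, two-sided, Benjamini-Hochberg over 16577 genes, threshold 0.05). FPKM was computed here from CPM and the table's gene lengths, which cover all exons of a gene and so understate genes with many isoforms. Libraries of 1 group differed by 2.00 to 2.32 times counting noise (chi-square per degree of freedom), so none was counted as a duplicate. The edgeR step was tested on simulated data. Alternatives were DESeq2 1.42.0, RLE factors, library totals, 2 other filters, limma 3.58.1 on log2(FPKM + 1) and log2(FPKM + 0.1), a replicate block and leaving out each library.

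The 48 genes and the other lists were chosen with earlier results of these data known. By rule, every one of the 48 is accounted for, with library values for called and abundant ones, and from each other list up to 4 called genes with the largest change are named. Genes overlapping one of the 48 are named where their counts reach 10% of its own. A gene that the rule would name is not reported here. Promoter windows come from RefSeq (GRCh38.p14).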

Additional observations from a re-analysis of the deposited data

How the results depend on the processing

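Of the 48 genes, the 20 calls (13 up, 7 down) became 19 with DESeq2, 20 with RLE factors or library totals, 19 with no low-count filter, 21 among genes of at least 1 FPKM, 15 in both limma fits and 16 to 18 when 1 library was left out. None of the 20 changed direction under the 14 alternatives, and 13 of them passed in every one. Of 611 values of single genes under these alternatives, 566 kept their direction and their side of the threshold. Over all genes, edgeR called 2495 (1377 up, 1118 down), against 1362 for limma on log2(FPKM + 1) (769, 593) and 1362 with log2(FPKM + 0.1) (770, 592), and the cause was not tested. Leaving out 1 library gave 1939 to 2183 calls. Libraries that share a replicate number did not deviate together (correlations 0.0034, -0.0544 and -0.0155), and with the replicate block 2303 genes and 20 of the 48 were called. Among genes of the other lists, LTBP1, TLL1 and DSP were not called in either limma fit (adjusted p from 0.0693 to 0.0815), nor COL4A6 with log2(FPKM + 0.1) (0.0506). VCAN, MMP11, COL9A2, CD44, MMP16, SPOCK2 and TCF4 were not called in either limma fit as well (limma adjusted p from 0.0631 to 0.410). The log2 change of TNC was -0.42 with log2(FPKM + 1), which understates low genes. ITGB5 passed throughout, from -0.29 to -0.25 with 1 library left out. Uncalled LAMB3 passed without shcontrol replicate 1 (edgeR adjusted p = 0.026) and LAMA3 among genes of at least 1 FPKM (0.0474). In all, 7 uncalled genes changed sign when 1 library was left out, with log2 changes from -0.0324 to 0.0829 for COL1A1, -0.24 to 0.33 for COL2A1, -0.15 to 0.0806 for COL6A2, -0.0273 to 0.0302 for HSPG2, -0.15 to 0.0185 for SNAI2, -0.0285 to 0.27 for SPARC and -0.10 to 0.0548 for ZEB1. At this depth, the low genes SNAI1, SNAI2, SPARC and COL2A1 had wide intervals.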
